A study of Mus musculus with 8 samples.

Results

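Of the 24259 gene symbols in the deposited count table, 7 were followed here. Their products act on the uracil that arises in immunoglobulin genes during somatic hypermutation, or on the abasic sites and gaps that follow from it. The genes were taken by symbol, with no threshold on a measured value but with earlier results of these data known: Ung, Smug1, Apex1, Msh6, Exo1, Polh and Rev1. All 7 passed the filter on low counts that left 12744 genes for testing.

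RNA was measured in NP+IgDlowB220+ B cells from lymph nodes of C57BL/6 mice, that is, B cells that bind the hapten NP and were on their way into the germinal center (GC), taken 3 days after the mice were immunized with NP-OVA, the hapten joined to ovalbumin. Both groups of hosts were CD45.1 Sap-/- mice, whose own T cells lack the adaptor SAP and cannot sustain a GC, and both received OT-II T cells, which recognise ovalbumin. The T cells given to HET hosts were CD4-CrexBcl6fl/+, so that 1 Bcl6 allele could be deleted in cells expressing Cre from the Cd4 promoter; those given to WT hosts had CD4-Cre alone. The sequenced B cells carried no Bcl6 deletion, so no deleted gene can be used to check the group names, and the ages of the mice were not given in the sources used here. Each group has 4 libraries of about 200 cells, all 4 sorted from 1 pool of recipients, so p-values measure the spread of sorting and library preparation, and the pool and the T cell genotype cannot be told apart.

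In activated B cells cytosine is turned into uracil in the DNA of antibody genes, and the outcome depends on what finds the uracil. The uracil glycosylases UNG and SMUG1 remove the base, and the endonuclease APE1, encoded by Apex1, cuts the strand at the abasic site. Alternatively, the MSH6-containing mismatch sensor recognises the U:G pair and the exonuclease EXO1 clears a stretch of the strand. Gaps and abasic sites can then be copied by the error-prone translesion polymerases, among them polymerase eta (Polh) and the deoxycytidyl transferase REV1, which place mutations at and around the original site. Much of this machinery also serves ordinary replication and repair.

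The 7 genes lie at 7 positions on 5 chromosomes of GRCm38 (GENCODE M21), and all are protein-coding. Ung spans chromosome 5, 114130386 to 114139323 (plus strand), Smug1 chromosome 15, 103153290 to 103167092 (minus strand), and Apex1 chromosome 14, 50924968 to 50927139 (plus strand). Msh6 spans chromosome 17, 87975062 to 87990892 (plus strand), and Polh lies on the same chromosome at 46171355 to 46202645 (minus strand). Exo1 (175880581 to 175913489, plus strand) and Rev1 (38052786 to 38129801, minus strand) are both on chromosome 1. Counts were summed per gene, so the mitochondrial and nuclear forms of UNG, which come from the same gene, were not separated.

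Exons of 3 of the genes overlap a neighbour on the opposite strand. Apex1 shares 61.7% of its 1422 exonic bases with Pip4p1, Rev1 shares 26.6% of its 6168 with Eif5b, and Msh6 shares 0.782% of its 4346 with Fbxo11. The strand setting of the counting was not stated. From the deposited counts, reads of a shared stretch cannot be given to either gene, so the values of Apex1 and Rev1 are uncertain to that extent. The neighbours gave log2 HET/WT ratios of 0.07 ± 0.12 (SE) for Pip4p1 and 0.15 ± 0.14 (SE) for Eif5b, and neither was called (edgeR adjusted p = 0.931 and 0.873).

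Promoter sequences were read from RefSeq windows on GRCm38.p6 (250 bases before to 50 after a transcript start), which held 6 of the 7 genes, all but Exo1. Ung and Apex1 are shown because this pair had the highest correlation of the 21 pairs over all 8 libraries, an order that did not hold with 2 libraries left out. Each stretch is the longest run of the window outside annotated exons and ahead of the first RefSeq start, on the plus strand, and capitals mark the letters CACGTG, an E-box that MYC among other factors can bind. The stretch for Ung is chr5:114130185-114130365 and the one for Apex1 is chr14:50924894-50924948.
Ung: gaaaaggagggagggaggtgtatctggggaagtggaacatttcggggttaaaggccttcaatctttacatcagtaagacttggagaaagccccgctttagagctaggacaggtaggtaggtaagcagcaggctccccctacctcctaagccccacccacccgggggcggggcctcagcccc
Apex1: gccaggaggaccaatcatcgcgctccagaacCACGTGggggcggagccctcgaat

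The whole Apex1 window held CACGTG 3 times and the Rev1 window once, while the windows of Ung, Smug1, Msh6 and Polh held none. Over all 32851 windows, 7.15% held these letters at least once and 0.0883% held them 3 times or more. The letters TTTCCCGC (or GCGGGAAA on the other strand), as in sites for E2F factors, were found once, in the Msh6 window, and in 1.07% of all windows. A second form, TTTGGCGC (or GCGCCAAA), was in no window of the 6 genes and in 0.514% of all windows. The motifs were chosen after the sequences had been seen, and such matches describe letters, not binding.

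Library depth ran from 6652386 to 12559189 counts, and 3 counts corresponded to 0.241 to 0.455 CPM (counts per 1000000 counts after TMM scaling). All libraries held RNA of B cells: the 7 B cell markers examined, Cd79a and Cd79b among them, summed to 10499 to 11772 CPM in HET and 12271 to 13126 CPM in WT. Markers of T cells and myeloid cells were present at a low level, and which cells their RNA came from was not tested. The 12 T cell markers summed to 505 to 813 CPM in HET and 426 to 684 CPM in WT. Of this, Cd2 and Lck gave 288 to 386 CPM in each library, and the other 10 markers gave 218 to 457 CPM in HET and 91.2 to 334 CPM in WT, with 0 to 7 counts of Cd4. The 8 myeloid markers summed to 29.6 to 72.8 CPM in HET and 23.3 to 452 CPM in WT, the highest value coming from WT replicate 2 with 3926 counts of Lyz2. HET replicate 1 stood apart with 2095 CPM of 6 markers of antibody-secreting cells, against 241 to 550 CPM elsewhere. Jchain alone gave 1576 CPM in HET replicate 1 and 0.505 to 97.1 CPM in the other libraries. Xbp1, another of the 6, was 297 CPM in HET replicate 1 and 313 CPM in HET replicate 4. A list of 36 cell cycle genes summed to 2723 to 3820 CPM in HET and 1698 to 2651 CPM in WT, where WT replicate 4 was lowest. The 5 naive B cell markers summed to 3498 to 4364 CPM in HET and 4455 to 4648 CPM in WT. The groups did not overlap for the cell cycle, B cell and naive B cell sums (two-sided exact permutation p = 0.0286 each, the smallest that 70 arrangements allow; adjusted p = 0.0762 over 8 sums including total counts). In RNA from sorted bulk cells, fewer cells of a kind and less RNA per cell cannot be told apart.

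To set the 7 genes in order of abundance, the TPM values deposited by the authors (transcripts per 1000000 transcripts, scaled for gene length) were used. Apex1 was far above the rest, with 261 ± 41.5 TPM (SD over 8 libraries), higher than 96.97% of tested genes. The part of reads from the overlapping Pip4p1 in this level is not known. Ung followed with 17.3 ± 5.27 TPM and Msh6 with 9.99 ± 2.33 TPM. Exo1 stood at 4.02 ± 2.01 TPM, Polh at 2.88 ± 0.556 TPM, Smug1 at 2.68 ± 1.61 TPM and Rev1 at 2.57 ± 0.648 TPM (SD over 8 libraries).

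Apex1 was 15.1 times as abundant as Ung on this scale and higher in 8 of 8 libraries. Every later pair of neighbours in this order had overlapping ranges over the 8 libraries. Ung lay above Msh6 in 7 libraries, Msh6 above Exo1 in 7, Exo1 above Polh in 6, Polh above Smug1 in 5 and Smug1 above Rev1 in 4. Of the 2 uracil glycosylases, Ung was thus the more abundant in TPM, with 8.39 to 24.01 TPM against 0.626 to 4.81 TPM for Smug1.

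**Figure D1:**
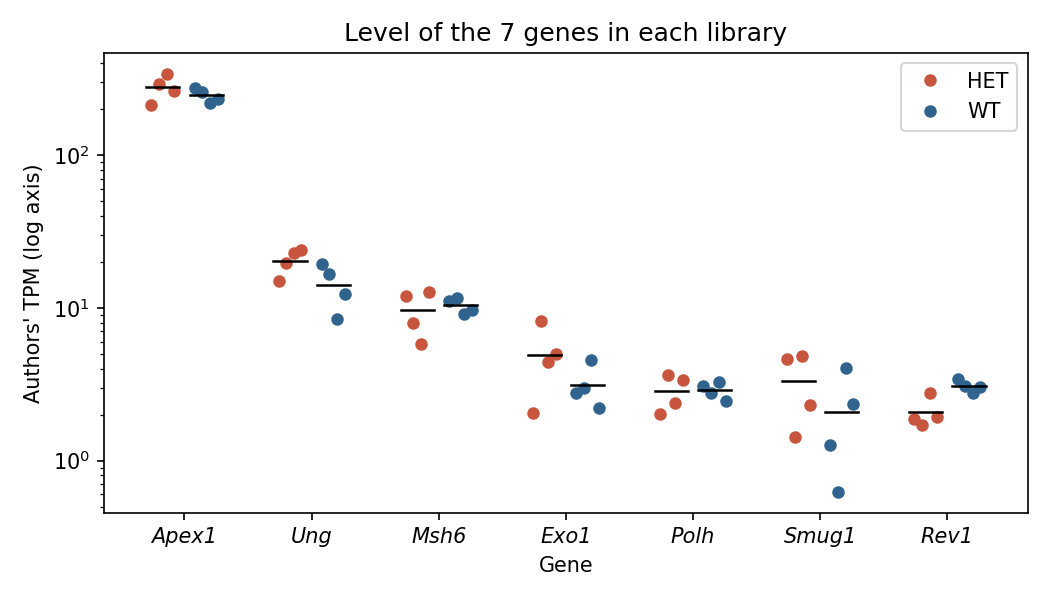
Level of each gene in each library, in the authors' TPM on a log axis, with HET libraries in red, WT libraries in blue and a black line at each group mean. Apex1 lies between 213 and 339 TPM in all 8 libraries, and Exo1, Polh, Smug1 and Rev1 share the range below 8.14 TPM.

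The order below Apex1 rests on the length assigned to each gene. The lengths that the TPM values imply, scaled to bases by the median over 9376 genes, were 8133 bases for Polh and 8374 for Rev1, against 5950 and 6168 exonic bases in GENCODE M21, and 3620 bases for Exo1 against 8422. When TMM-scaled CPM was divided by the GENCODE exonic length instead, Apex1 remained first with 111 ± 17.1 CPM per kilobase (SD over 8 libraries). Msh6 (7.76 ± 1.97) then came before Ung (7.22 ± 2.25), and Polh (3.45 ± 0.623) and Rev1 (3.06 ± 0.738) came before Exo1 (1.51 ± 0.742) and Smug1 (1.08 ± 0.659), all in CPM per kilobase.

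To ask whether help from Bcl6-haploinsufficient T cells was accompanied by a different supply of these enzymes in the B cells, each gene was compared between HET and WT in edgeR's quasi-likelihood test over all 12744 genes, with the fold change given as a log2 HET/WT ratio, positive where HET was higher. No gene of the 7 was called, with adjusted p from 0.692 to 0.989 in edgeR. Over all genes 0.0235% were called at this threshold. At an unadjusted p under 0.05, 0 of the 7 passed in edgeR and 2 in DESeq2 (Ung and Rev1, adjusted p = 0.496 and 0.476), against 7.22% of all genes in edgeR and 8.91% in DESeq2. By sign, 5 genes were higher and 2 lower in HET, with a median log2 HET/WT ratio of 0.21, and over all tested genes the median was -0.0014 and 49.9% were higher. The groups overlapped for each of the 7 genes, while 4.61% of all tested genes had groups that did not overlap.

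**Figure D2:**
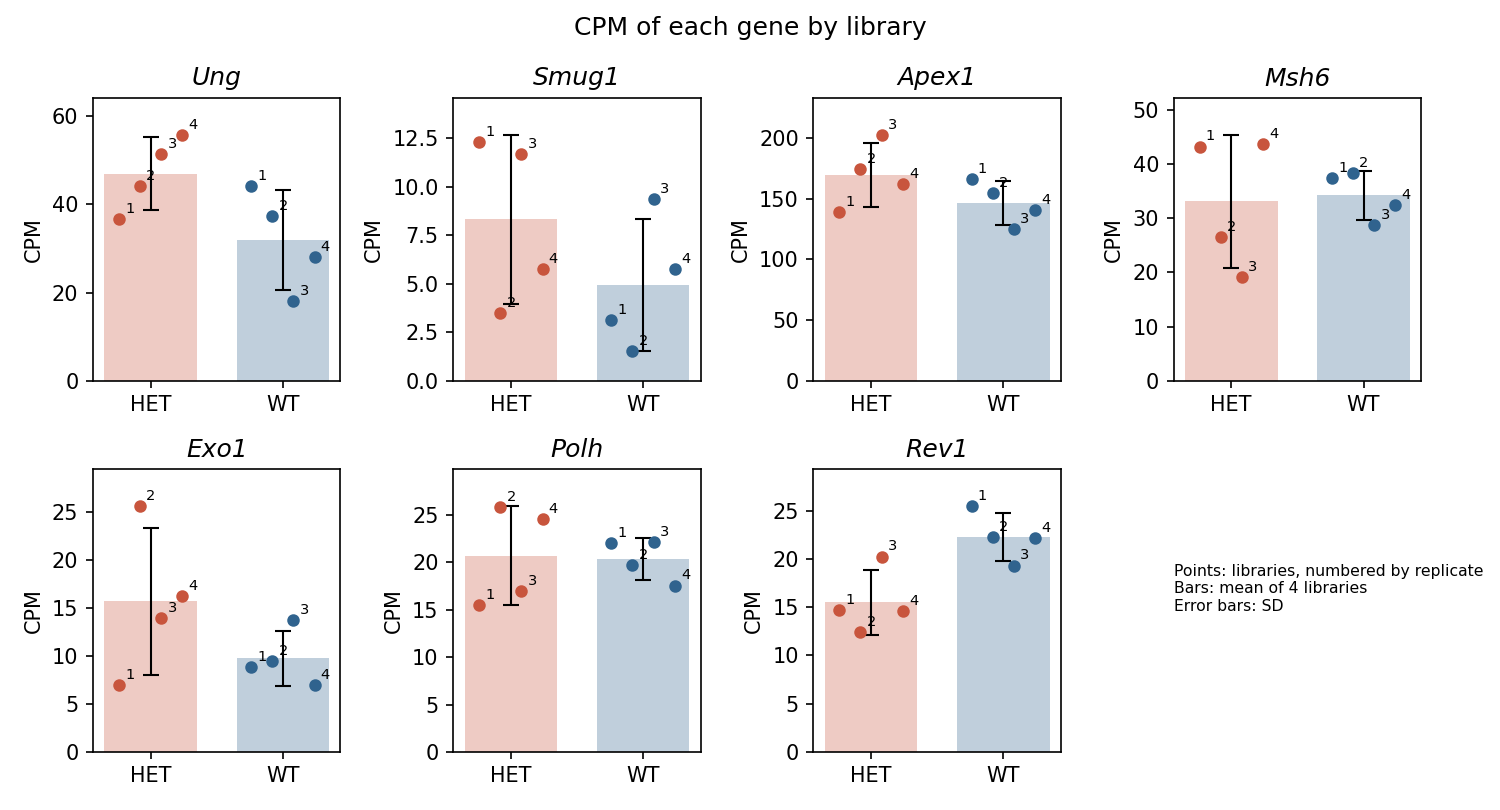
CPM of each gene in the 4 HET (red) and 4 WT (blue) libraries, with points numbered by replicate, bars at the group mean from 0 and error bars of 1 SD. The groups overlap in every panel; for Rev1, 3 HET libraries lie below all WT libraries, and for Exo1, 3 lie above them.

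Among the genes of uracil excision, Ung, the main uracil glycosylase in hypermutating B cells, leaned toward HET without reaching the threshold. Its CPM was 36.7, 44.2, 51.4 and 55.8 in HET replicates 1 to 4 and 44.2, 37.4, 18.0 and 28.0 in WT replicates 1 to 4. HET replicates 3 and 4 were above every WT library, WT replicates 3 and 4 were below every HET library, and the rest overlapped. The means were 47.0 ± 8.37 CPM in HET and 31.9 ± 11.4 CPM in WT (SD, n = 4), and the log2 HET/WT ratio was 0.56 ± 0.26 (SE), with a 95% interval from -0.00056 to 1.11 and an unadjusted p of 0.0502 (edgeR adjusted p = 0.692). Without WT replicate 1 the log2 HET/WT ratio was 0.75 (edgeR unadjusted p = 0.0150, adjusted p = 0.552), and without WT replicate 3 it was 0.37 (edgeR unadjusted p = 0.127, adjusted p = 0.904). The cell cycle sum given above was likewise lower in WT replicates 3 and 4 than in any other library, and its part in the Ung values was not tested.

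Smug1, the glycosylase that backs up UNG, was the scarcest and most variable of the 7 by count. Its CPM was 12.3, 3.50, 11.7 and 5.76 in HET replicates 1 to 4 and 3.14, 1.52, 9.34 and 5.74 in WT replicates 1 to 4. High and low libraries occurred in both groups, and the highest library was 8.07 times the lowest. It rested on 15 to 153 counts per library, where counting error alone is 25.8% at the lowest count and 8.08% at the highest, and the SD within groups was 52.4% of the mean in HET and 69.1% in WT. The log2 HET/WT ratio of 0.76 ± 0.57 (SE) had a 95% interval from -0.47 to 1.99 (edgeR adjusted p = 0.828), which reaches a 3.98-fold excess in HET. Without WT replicate 3 the log2 HET/WT ratio was 1.27, and without WT replicate 2 it was 0.46, neither past the threshold.

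Apex1, which encodes the endonuclease that cuts abasic sites, was the most evenly expressed. Its CPM was 139, 174, 203 and 162 in HET replicates 1 to 4 and 166, 155, 125 and 140.4 in WT replicates 1 to 4. HET replicates 2 and 3 exceeded all WT libraries and HET replicate 1 was below WT replicate 4. The means were 169 ± 26.6 CPM in HET and 147 ± 18.04 CPM in WT (SD, n = 4), with a log2 HET/WT ratio of 0.21 ± 0.13 (SE), with a 95% interval from -0.08 to 0.50 (edgeR adjusted p = 0.793). With 988 to 1752 counts per library, this interval was the narrowest of the 7, and its upper bound is a 1.41-fold excess in HET. Without HET replicate 3 the log2 HET/WT ratio was 0.12 (edgeR unadjusted p = 0.404, adjusted p = 0.943), and without HET replicate 1 it was 0.30 (edgeR unadjusted p = 0.0391, adjusted p = 0.576).

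In the mismatch branch, Msh6, which encodes the subunit of the mismatch sensor that favours single mismatches, had close means in the groups. Its CPM was 43.2, 26.6, 19.2 and 43.7 in HET replicates 1 to 4 and 37.4, 38.4, 28.8 and 32.5 in WT replicates 1 to 4. All WT libraries lay inside the range of the HET libraries, which were split into a high and a low pair. The means were 33.2 ± 12.3 CPM in HET and 34.3 ± 4.49 CPM in WT (SD, n = 4). The log2 HET/WT ratio was -0.05 ± 0.26 (SE), with a 95% interval from -0.61 to 0.52 (edgeR adjusted p = 0.981), and its sign turned when single libraries were left out (-0.20 without HET replicate 4, 0.15 without HET replicate 3).

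Exo1, the exonuclease that enlarges the mismatch gap, had higher values in 3 of 4 HET libraries than in any WT library. Its CPM was 6.99, 25.6, 13.9 and 16.2 in HET replicates 1 to 4 and 8.84, 9.45, 13.8 and 6.99 in WT replicates 1 to 4. HET replicate 2 was highest by a wide margin, and HET replicate 1 was level with the lowest WT library. The means were 15.7 ± 7.71 CPM in HET and 9.76 ± 2.86 CPM in WT (SD, n = 4), and the log2 HET/WT ratio was 0.68 ± 0.39 (SE), with a 95% interval from -0.16 to 1.53 (edgeR adjusted p = 0.773). Without HET replicate 2 it was 0.34 (edgeR unadjusted p = 0.410, adjusted p = 0.950). Without HET replicate 1, the library rich in Jchain RNA, it was 0.94 (edgeR unadjusted p = 0.0221, adjusted p = 0.528). Exo1 had 67 to 198 counts per library.

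Of the translesion enzymes, Polh, the polymerase that mutates A:T pairs during hypermutation, had nearly equal means. Its CPM was 15.5, 25.8, 16.9 and 24.6 in HET replicates 1 to 4 and 22.0, 19.7, 22.1 and 17.5 in WT replicates 1 to 4. The WT libraries again fell inside the HET range. The means were 20.7 ± 5.22 CPM in HET and 20.3 ± 2.18 CPM in WT (SD, n = 4), and the log2 HET/WT ratio was 0.02 ± 0.26 (SE), with a 95% interval from -0.53 to 0.57 (edgeR adjusted p = 0.989).

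Rev1, which inserts cytosine opposite abasic sites and recruits other translesion polymerases, leaned the other way. Its CPM was 14.7, 12.4, 20.2 and 14.6 in HET replicates 1 to 4 and 25.5, 22.2, 19.3 and 22.1 in WT replicates 1 to 4. HET replicates 1, 2 and 4 were below every WT library, and HET replicate 3 was above WT replicate 3. The means were 15.5 ± 3.33 CPM in HET and 22.3 ± 2.52 CPM in WT (SD, n = 4), and the log2 HET/WT ratio was -0.53 ± 0.26 (SE), with a 95% interval from -1.08 to 0.02 and an unadjusted p of 0.0582 (edgeR adjusted p = 0.706). Without HET replicate 3 it was -0.68 (edgeR unadjusted p = 0.0247, adjusted p = 0.738), and without HET replicate 2 it was -0.43 (edgeR unadjusted p = 0.138, adjusted p = 0.871).

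**Figure D3:**
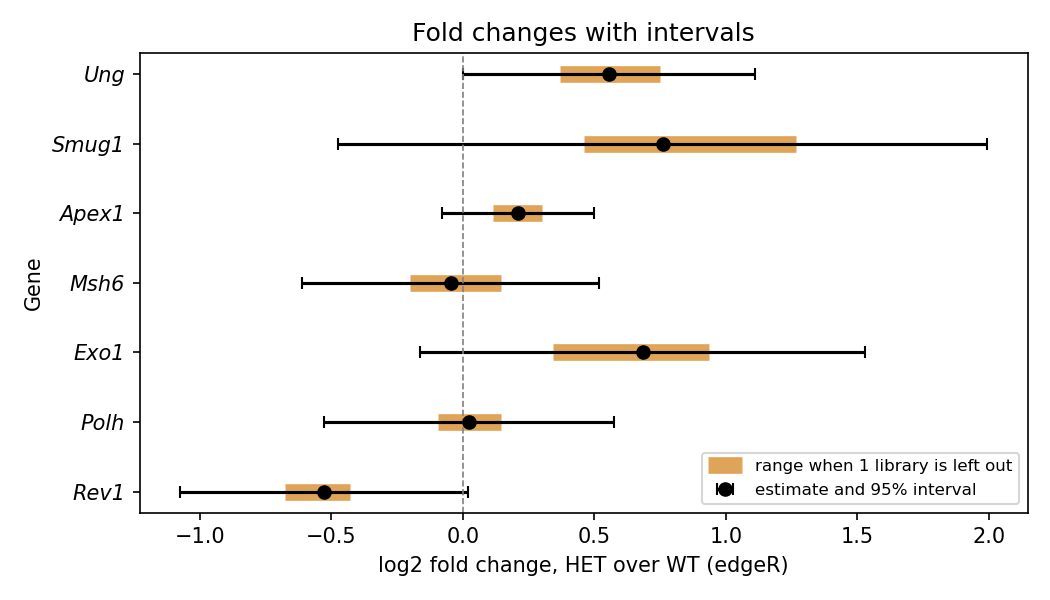
Log2 HET/WT ratio of each gene from edgeR (black points) with its 95% interval (black bars) and the range of the estimate when 1 library is left out (orange). All 7 intervals include 0, from -0.08 to 0.50 for Apex1, the narrowest, to -0.47 to 1.99 for Smug1, the widest.

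The genes differed in how much they varied between repeats of a group. The biological coefficient of variation estimated by edgeR was 0.162 for Apex1, lower than that of most tested genes (percentile 11.1). It was 0.269 to 0.276 for Ung, Msh6, Rev1 and Polh (percentiles 41.3 to 42.9), 0.409 for Exo1 (percentile 63.6) and 0.577 for Smug1 (percentile 80.05). The 2 most variable genes were also those with the fewest counts.

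Co-variation between the genes was examined over the 8 libraries for all 21 pairs on the log2(CPM + 1) scale. Ung and Apex1 had the highest correlation (Pearson r = 0.83, exact permutation p = 0.0100; Spearman rho = 0.81, exact permutation p = 0.0218), which did not pass adjustment over the 21 pairs (adjusted p = 0.21 and 0.457, exact permutation). Leaving out WT replicates 3 and 4, the libraries farthest from the median of Ung, gave r = 0.66. Polh and Exo1 came next (r = 0.74, exact permutation p = 0.0387, adjusted p = 0.407; rho = 0.69, exact permutation p = 0.0694, adjusted p = 0.718), and without HET replicates 1 and 2 their r was 0.43. The order of the pairs rests on single libraries: without HET replicate 3 and WT replicate 3, the farthest from the median of Apex1, r went from 0.10 to 0.95 for Apex1 and Polh and from 0.43 to 0.81 for Apex1 and Exo1. The 8 libraries come from 2 pools and differ in cell cycle RNA. The permutations ran over all orders of the 8 libraries without regard to group, so a shift between the groups can enter r and these p-values. A group of 4 is too small for values within groups.

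Over the same libraries, the gene most like each of the 7 was sought among the 9811 others with a mean of at least 50 counts, as a description with no test. These were Park7 for Ung (Pearson r = 0.98), Zfp64 for Msh6 (0.95), Mrpl35 for Apex1 (0.95), Puf60 for Polh (0.96), B4galt5 for Exo1 (0.99), Pdlim7 for Rev1 (0.97) and Heca for Smug1 (0.95). No gene of the 7 was the nearest of another, which says little among 9811 candidates. An r above 0.9 was reached by 58 genes for Ung and by 8 to 23 genes for each of the others. With 8 libraries and so many candidates, r values this high can arise by chance. The number expected by chance was not worked out, so nothing is read from these counts.

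Next, the wider pathways were examined with lists compiled with earlier results of these data known. In base excision repair, which holds Ung, Smug1 and Apex1, 21 of 22 genes were tested and none was called in edgeR or DESeq2. By sign 12 were higher in HET and 9 lower, and the list median was 0.13 in log2 HET/WT ratio. At an unadjusted p under 0.05, 2 were higher and 1 lower, where 3.34% and 3.88% of all genes were higher and lower, respectively. The 2 of lowest p were the glycosylases Neil1, with 33.6 ± 15.0 CPM in HET and 18.4 ± 3.45 CPM in WT (SD, n = 4; log2 HET/WT ratio 0.87, edgeR adjusted p = 0.576), and Tdg, with 33.8 ± 8.30 CPM in HET and 22.4 ± 5.21 CPM in WT (SD, n = 4; log2 HET/WT ratio 0.59, edgeR adjusted p = 0.627).

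Mismatch repair, with Msh6, Exo1 and the replication factors that refill the gap, had 22 of 22 genes tested and none called in edgeR or DESeq2. By sign 13 lay on the higher side and 9 on the lower, and the list median was 0.17 in log2 HET/WT ratio. At an unadjusted p under 0.05, 4 were higher and 0 lower in edgeR, where 3.34% and 3.88% of all genes were higher and lower, respectively. Rfc4, a clamp loader subunit, had a log2 HET/WT ratio of 0.58 ± 0.24 (SE; edgeR adjusted p = 0.616), and Pold2, a subunit of the replicative polymerase delta, had 0.36 ± 0.15 (SE; edgeR adjusted p = 0.625). For Pold2 the groups did not overlap, with 61.2 to 74.2 CPM in HET and 46.1 to 60.6 CPM in WT; it was the only such gene of the 22, where 1.99% of all tested genes had HET above WT without overlap. The other 2, Pcna and Pold1, named after their values were seen, also serve replication, and Pcna is in the cell cycle list too.

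In translesion synthesis, which holds Polh and Rev1, 17 of 19 genes were tested and none was called in edgeR or DESeq2, with 9 higher and 8 lower by sign and a median log2 HET/WT ratio of 0.02. Rev3l, the catalytic subunit of polymerase zeta that works with REV1, had 13.5 to 17.7 CPM in HET and 20.7 to 29.6 CPM in WT, without overlap (log2 HET/WT ratio -0.63 ± 0.24 (SE), edgeR unadjusted p = 0.0211, adjusted p = 0.602). Hltf, a ligase and translocase that acts on PCNA at stalled forks, had 22.5 to 30.05 CPM in HET and 31.3 to 48.8 CPM in WT, also without overlap (log2 HET/WT ratio -0.60 ± 0.22 (SE), edgeR unadjusted p = 0.0155, adjusted p = 0.579). Of all tested genes, 2.62% had HET below WT without overlap. Ube2a, a ubiquitin-conjugating enzyme that works with RAD18 and was named after its values were seen, was on the higher side (log2 HET/WT ratio 0.33, edgeR unadjusted p = 0.0247, adjusted p = 0.612).

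**Figure D4:**
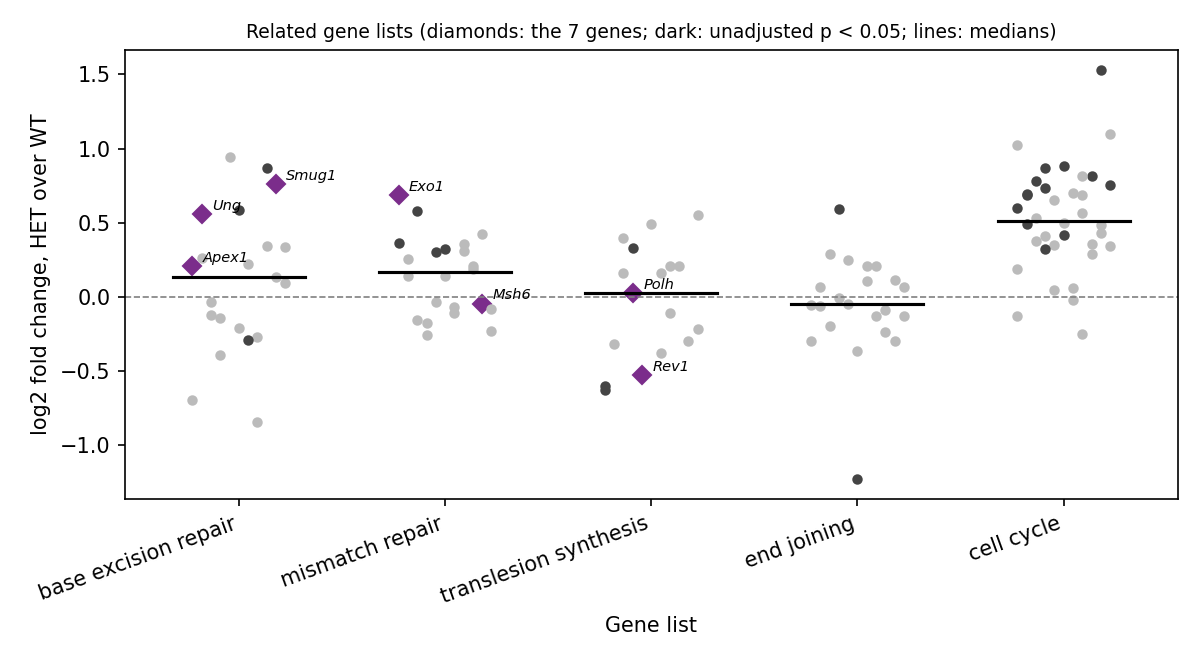
Log2 HET/WT ratios of the tested genes of 5 related lists, with the 7 genes as labelled diamonds, genes at an unadjusted p under 0.05 in dark grey and a line at each list median. The medians of the 4 repair lists lie between -0.05 and 0.17, and that of the cell cycle list at 0.51.

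End joining, which seals the breaks of class switching, had 22 genes tested, none called in edgeR or DESeq2 and a median log2 HET/WT ratio of -0.05. The 2 of lowest p were H2ax, the histone variant phosphorylated at breaks (log2 HET/WT ratio 0.60 ± 0.22 (SE), edgeR adjusted p = 0.587), and Nhej1, a ligation factor present at 3.57 ± 2.22 CPM in HET and 8.38 ± 3.08 CPM in WT (SD, n = 4; log2 HET/WT ratio -1.23, edgeR adjusted p = 0.621). In the cell cycle list all 36 genes were tested, with a median of 0.51, and 33 were higher by sign, against 49.9% of all tested genes. None of the 36 was called in edgeR and 4 were called in DESeq2 (Ccnb2, Hmgb2, Dut and Rrm2), where 0.687% of all genes were called. The last 2 of these, named after their values were seen, make or clear DNA precursors; Dut, whose product removes dUTP, had 110 to 144 CPM in HET and 59.7 to 97.6 CPM in WT, without overlap (log2 HET/WT ratio 0.75, edgeR adjusted p = 0.233, DESeq2 adjusted p = 0.00868). At an unadjusted p under 0.05 in edgeR, 13 of the 36 were higher and 0 lower, where 3.34% and 3.88% of all genes were, respectively. The 2 genes of lowest p in this list were the mitotic cyclin Ccnb2 (log2 HET/WT ratio 1.53) and the chromatin protein Hmgb2 (0.78), both with an edgeR adjusted p of 0.0870. The groups did not overlap for 3 of the 36, Dut, Ccnb2 and Hmgb2, with HET above WT. Of all tested genes, 1.99% had HET above WT without overlap. None of the 7 genes was put in the cell cycle list, so their absence from it follows from how the list was compiled. The part of cell cycle RNA in their values was not tested.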

How the data were processed

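The authors prepared SMART-Seq2 libraries, aligned reads to GRCm38 (mm10) with HISAT2 2.2.1 and counted reads per gene with HTSeq; the annotation release, strand setting and handling of multiple alignments are not given in the sources used here. The deposited counts are whole read counts per gene symbol without molecular identifiers, so counting errors cover counting only. The deposited TPM values were made by the authors, and how is not stated; they were used for levels between genes.

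The main test was that of edgeR 4.0.16 in R 4.3.3 (filterByExpr, TMM, robust quasi-likelihood F-test, group as the only factor). It covered 12744 genes holding 99.7% of counts, with Benjamini-Hochberg adjustment over all of them and a threshold of 0.05. The SE of a log2 ratio is that ratio over the square root of its F value, and 95% intervals use the fit's degrees of freedom. DESeq2 1.42.0, the study's tool, and limma 3.58.1 were alternatives. Scripts were tested on simulated counts. Repeats were not duplicates: chi-square values over genes between repeats were 12.6 to 29.1 times their degrees of freedom. Positions and overlaps come from GENCODE M21.

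The genes and lists were chosen with earlier results of these data known. Named beside the 7 genes are, for each related list, any gene past the edgeR threshold and the 2 of lowest edgeR p, and, for each of the 7, the gene of highest Pearson r; genes outside this rule are marked as named after their values were seen. A related list and some single genes are not reported here.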

Additional observations from a re-analysis of the deposited data

Results flagged for a closer look

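A library was singled out by Dixon's gap test within its group of 4, which chance alone meets in about 1 of 20 groups. None of the 14 groups of values of the 7 genes met this. Of all 32 groups examined, 2 did, where about 1.6 are expected. The summed markers of antibody-secreting cells stood at 2095 CPM in HET replicate 1, of which Jchain gave 1576 CPM, and the rest of HET had 294 to 550 CPM. The summed myeloid markers stood at 29.6 CPM in HET replicate 4, and the rest of HET had 66.2 to 72.8 CPM.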

How the results depend on the processing

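No alternative called any of the 7 genes: over 19 alternatives for each, the lowest adjusted p was 0.476 (DESeq2, Rev1), and 122 of 133 log2 fold changes kept their direction. The 11 that did not were for Msh6 and Polh. Polh was -0.0038 with the replicate block, -0.0047 in limma-voom with sample weights, -0.033 in limma-trend on log2(TPM + 1) with or without a minimum mean TPM of 1, and -0.051 on log2(TPM + 0.1). With 1 library left out, Polh ranged from -0.10 to 0.15 and Msh6 from -0.20 to 0.15. Ung kept its sign in all 19 and had an unadjusted p under 0.05 in 9 of them; Rev1 kept its sign in all 19 and had one in 6. Leaving out HET replicate 1 and WT replicate 4 together, chosen after seeing the data, gave 0.60 for Ung, 0.80 for Exo1 and -0.50 for Rev1 (edgeR adjusted p = 0.733, 0.722 and 0.819). Over all genes, the 3 calls became 95 in DESeq2, 38 with no filter on low counts, 7 with a mean of at least 50 counts, 6 in limma-voom, 1 in limma-trend on log2(TPM + 0.1) and 0 in limma-trend on log2(TPM + 1) with or without the minimum TPM; they were 1 to 6 with 1 library left out, and the cause was not tested. The replicate numbers are not known to pair libraries: the deviations of same-numbered HET and WT libraries correlated at -0.05 to 0.01, 1 of 4 HET libraries correlated best with its own number, and the fit with the replicate block called 0 genes. Smug1 had the fewest counts of the 7, with as few as 15 in a library, and the part of depth in its spread was not tested.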

Other observations

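Fam72a, whose protein binds UNG2 and lowers its amount, was chosen after its values were seen. Its CPM was 6.19, 4.02, 3.60 and 6.82 in HET replicates 1 to 4 and 4.47, 6.91, 0 and 0 in WT replicates 1 to 4, so that WT replicates 3 and 4, the libraries lowest in Ung, had no Fam72a count. The log2 fold change of 0.85 had an SE of 1.12 (edgeR adjusted p = 0.913), and with 0 to 77 counts a library the groups could not be told apart. At these depths, a count of 0 allows up to 0.379 CPM in WT replicate 3 and 0.313 CPM in WT replicate 4.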
